A study of Mus musculus with 16 samples.

Results

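Slc6a8 and Ckb are the genes of the creatine transporter and of the brain-type creatine kinase. They were chosen by name, as the rows of the deposited expression table with these symbols, and make 2 of its 20490 genes. The pair was picked with results of these data in view, so the differences of both genes are given as values with standard errors and without a p-value. The listed genes further below were also chosen with earlier results known. Their p-values and counts are therefore not independent of these data. The RNA came from RAW264.7 cells, a mouse macrophage line labelled as an osteoclast precursor, which is 1 line and not a primary culture. The cells attached for 12 h and then received either phosphate-buffered saline (PBS), recombinant mouse RANKL as a GST fusion (10 ng/mL), extracellular vesicles of PC3M cells (EV, 30 µg/mL), or both agents (EV+RANKL). PC3M is a metastatic human prostate cancer line, RANKL is the cytokine that turns macrophage precursors into bone-resorbing osteoclasts, and all cells were grown in MEM medium with fetal bovine serum. Each treatment was read at 48 h and 72 h with 2 libraries, which gives 8 groups and 16 libraries. No label tells whether the 2 libraries of a group come from separate cultures. Errors and p-values therefore cover only the spread between the libraries at hand, and that spread may be technical.

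Creatine is made from arginine and glycine, by Gatm and then Gamt, or taken up from the medium by Slc6a8, a sodium- and chloride-dependent transporter of the SLC6 family. Creatine kinases move a phosphate between ATP and creatine, so that phosphocreatine can buffer and carry energy to places where ATP is spent quickly. Ckb is the cytosolic form of brain and other non-muscle tissues, Ckm the cytosolic form of muscle, and Ckmt1 and Ckmt2 work in mitochondria. Ckb is known to be raised when osteoclasts form, where it has been linked to the acid pumping that dissolves bone.

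The sequence just before the start of Ckb is shown because it is the stretch in which letters known from promoters can be looked for. It covers the 250 bases before the RefSeq start at chr12:111672339-111672588 of GRCm38.p6, on the minus strand, read 5′ to 3′. Capitals mark the matches found.
Ckb: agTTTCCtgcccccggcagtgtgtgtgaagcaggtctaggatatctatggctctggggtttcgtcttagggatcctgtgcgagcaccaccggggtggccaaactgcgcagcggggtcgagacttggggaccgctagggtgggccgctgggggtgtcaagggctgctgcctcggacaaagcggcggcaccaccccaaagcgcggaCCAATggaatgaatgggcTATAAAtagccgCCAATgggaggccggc
Both strands were searched. The TATA letters TATAAA stand 28 bases before the start, and 12.3% of 32536 RefSeq promoter windows of the same length hold them. The letters CCAAT occur in 2 places, 46 and 16 bases before the start, and 33.8% of windows hold at least 1 match. These motifs were added after the sequence was seen. The NFAT letters GGAAA occur once, on the opposite strand with the match 248 bases before the start, as they do in 55.7% of windows. The AP-1 letters TGANTCA, the E-box CACGTG, the nuclear receptor half-site AGGTCA, the GC box GGGCGG and the PU.1 letters GAGGAA were not in this window, and 6.73%, 6.04%, 14%, 33.0% and 23.4% of windows hold them. A match is a description of letters and no binding was measured.

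The libraries held 18.4 M to 20.0 M assigned reads (M for mega), as recovered from the values, and 14777 to 15631 genes were above 0. Levels are in RPKM, read counts scaled by the length of the gene and the depth of the library, which allows levels of different genes to be compared. Differences are on the log2(RPKM + 1) scale, which understates changes of low genes. The labelled cell type was checked against its markers. All 8 listed macrophage markers passed the filter of at least 1 RPKM in 2 libraries, with a summed level of 2460 to 8290 RPKM, and 13 of 14 osteoclast markers passed, with a summed level of 66.5 to 1820 RPKM. The macrophage sum ran from 6080 to 8290 RPKM in libraries without RANKL and from 2460 to 3540 RPKM in those with it, and the osteoclast sum from 66.5 to 234 RPKM against 360 to 1820 RPKM. Lyz2 alone ran from 719 to 6080 RPKM, so the macrophage sum may largely follow this gene and does not show the 8 markers as a set. Likewise Acp5 alone ran from 0.437 to 663 RPKM, so the osteoclast sum does not show its markers as a set. Any 2 libraries are enough to pass the filter. Acp5 stood at 0.437 to 0.872 RPKM in PBS and passed through treated libraries only. Passing thus does not show osteoclast markers in untreated cells. The part of these marker levels in the results below was not tested. Tissues in which creatine kinase is abundant left little trace: of 11 muscle markers 7 were in the table and none passed, with Des highest at 0.128 RPKM in any library, and of 7 markers of neurons and glia only Mbp passed, at up to 16.5 RPKM. Of 8 epithelial or carcinoma markers 4 were in the table and none passed, with Met highest at 0.252 RPKM. At 72 h their sum was 0 in PBS, 0.0361 to 0.0482 RPKM with vesicles and 0.0472 to 0.11 RPKM with RANKL. With EV+RANKL at 72 h it was 0.222 to 0.302 RPKM. The table holds mouse symbols and PC3M is human, so these levels cannot tell whether RNA of the vesicles was read. In such bulk samples a change in the share of cells and a change in RNA per cell cannot be told apart.

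Slc6a8 was highest where vesicles and RANKL were given together for 72 h, and vesicles went with a higher level in all 4 settings in which they were added. In PBS at 48 h it stood at 5.06 and 3.71 RPKM, from 493 and 357 reads. With vesicles alone for 48 h it stood at 8.25 and 7.93 RPKM, from 821 and 774 reads. Both vesicle libraries lay above both PBS libraries, by 1.85-fold in the means and by 0.77 ± 0.265 (SE) on the log2 scale. Of the 10363 genes tested, 32.0% had both vesicle libraries above both PBS libraries in this comparison. These values were in view when the gene was chosen, so this share and the like shares below are given as the background and nothing is read from them. Comparisons against the same group share its libraries. For 493 reads the exact Poisson 95% interval runs from 4.62 to 5.53 RPKM, above the 3.71 RPKM of the other PBS library. With vesicles alone the intervals of both libraries, 7.696 to 8.835 and 7.383 to 8.511 RPKM, overlap. These intervals cover counting error only.

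RANKL alone for 48 h did not separate from PBS in Slc6a8. Its libraries stood at 3.80 and 2.75 RPKM (368 and 287 reads), they overlapped with PBS, and the difference was -0.33 ± 0.265 on the log2 scale. It was -0.15 without replicate 1 of PBS or replicate 2 of RANKL, and -0.51 without the other library of either group. Vesicles on top of RANKL for 48 h gave 13.0 and 9.31 RPKM (1358 and 951 reads). This was 3.41-fold above RANKL alone in the means, with both libraries above, as in 22.1% of tested genes. The difference was 1.5 ± 0.265 on the log2 scale. Against vesicles alone the difference at 48 h was smaller, 1.38-fold and 0.40 ± 0.265, with both libraries above as in 37.0% of genes, and it came to 0.18 without replicate 1 and 0.63 without replicate 2 of EV+RANKL at 48 h.

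At 72 h RANKL alone also went with more Slc6a8. PBS stood at 5.05 and 3.08 RPKM (483 and 319 reads) and RANKL at 7.51 and 10.3 RPKM (755 and 1066 reads). Both RANKL libraries were above, by 2.19-fold and 0.98 ± 0.265 on the log2 scale, as in 26.2% of genes. Vesicles alone gave 11.7 and 7.15 RPKM (1179 and 705 reads). They too were both above PBS, by 2.32-fold, as in 33.5% of genes. The combination gave 28.6 and 19.3 RPKM (2923 and 1927 reads), more than in any other library. It lay 2.69-fold above RANKL alone, by 1.32 ± 0.265 on the log2 scale, with both libraries above as in 20.8% of genes. It lay 2.54-fold above vesicles alone, by 1.27 ± 0.265, with both libraries above as in 23.1% of genes.

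Time went with Slc6a8 in the groups with RANKL. From 48 h to 72 h its mean went from 3.28 to 8.89 RPKM with RANKL, a log2 difference of 1.21 ± 0.265, and from 11.2 to 23.9 RPKM with EV+RANKL, a difference of 1.02 ± 0.265. In both cases the libraries of 72 h were above those of 48 h, as in 24.7% and 35.9% of genes. In PBS and with vesicles alone the libraries of both times overlapped, with differences of -0.10 ± 0.265 and 0.16 ± 0.265, and both change sign when 1 library is left out. Without replicate 1 of EV at 72 h the second is -0.16, and without replicate 2 of PBS at 72 h the first is 0.18.

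**Figure D1:**
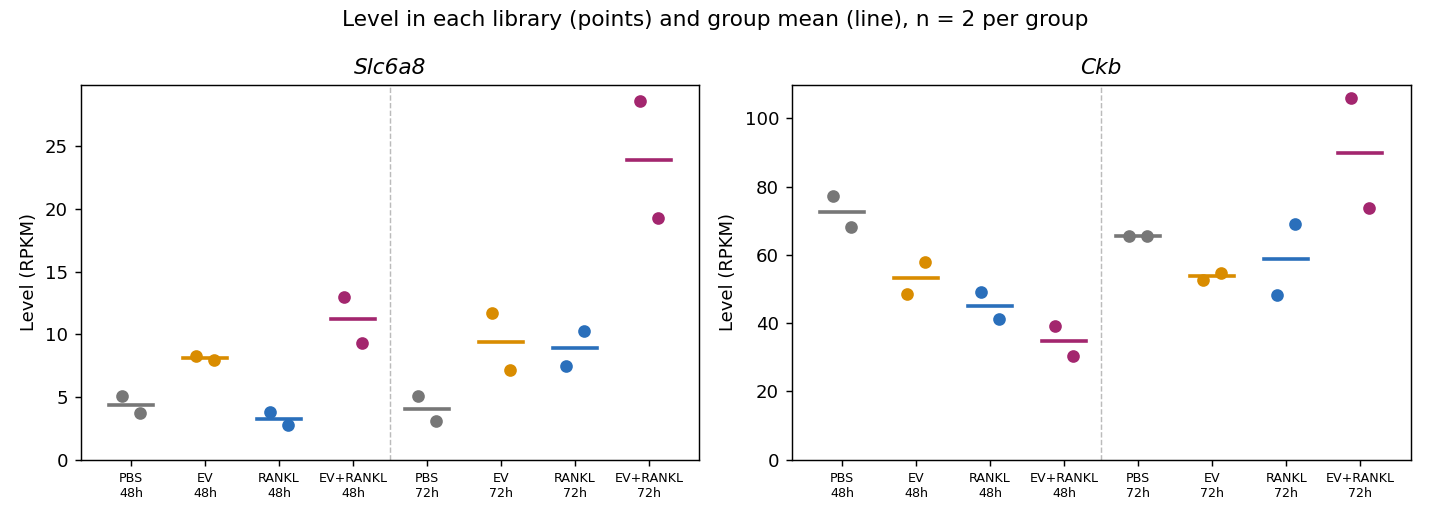
Level of Slc6a8 (left) and Ckb (right) in RPKM on linear axes from 0, by group along the horizontal axis, with a point for each of the 2 libraries and a line for their mean. The left panel has its highest points, 28.6 and 19.3 RPKM, in EV+RANKL at 72 h, and the right panel has its lowest points, 39.1 and 30.3 RPKM, in EV+RANKL at 48 h and its highest point, 106.0 RPKM, in EV+RANKL at 72 h.

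Sorted by mean, the groups of Slc6a8 fell into 3 blocks. RANKL at 48 h (3.28 RPKM), PBS at 72 h (4.07) and PBS at 48 h (4.38) overlapped with their neighbours. Vesicles at 48 h (8.09), RANKL at 72 h (8.89), vesicles at 72 h (9.43) and EV+RANKL at 48 h (11.2) formed a run in which each overlapped with the one before. All of them stood apart from the groups below, and EV+RANKL at 48 h did not overlap with vesicles at 48 h. EV+RANKL at 72 h (23.9) stood apart from all others. The share of all tested genes with a group apart in this way was not counted, so nothing is read from the order.

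Ckb stood at 30.3 to 106.0 RPKM, against 2.75 to 28.6 RPKM for Slc6a8, and had another pattern: every treatment was lower than PBS at 48 h, and the combination was the highest at 72 h. In PBS at 48 h it stood at 77.2 and 68.2 RPKM (2135 and 1865 reads). RANKL alone for 48 h gave 49.0 and 41.1 RPKM (1348 and 1215 reads), both below PBS as in 25.4% of genes, with a difference of -0.68 ± 0.192 on the log2 scale. Vesicles alone for 48 h gave 48.5 and 57.9 RPKM (1370 and 1602 reads), both below PBS as in 20.6% of genes, with a difference of -0.45 ± 0.192.

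The combination for 48 h had the lowest Ckb, 39.1 and 30.3 RPKM (1155 and 877 reads). Both libraries were below those of vesicles alone, by -0.61 ± 0.192 on the log2 scale, as in 26.6% of genes. Both were also below those of RANKL alone, as in 21.8% of genes, but by only -0.37 ± 0.192, and without replicate 1 of RANKL that difference was -0.25 and without replicate 2 of EV+RANKL it was -0.20. The latter is the library whose column name lacks the letter for RANKL.

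At 72 h the direction for the combination was the other way. PBS stood at 65.4 and 65.5 RPKM (1775 and 1921 reads) and vesicles alone at 52.7 and 54.7 RPKM (1503 and 1532 reads), both below PBS as in 23.6% of genes, by -0.28 ± 0.192 on the log2 scale. RANKL alone gave 48.4 and 69.0 RPKM (1380 and 2031 reads), on either side of PBS, with a difference of -0.18 ± 0.192 that was 0.08 without replicate 1 and -0.43 without replicate 2 of RANKL. EV+RANKL gave 106.0 and 73.8 RPKM (3076 and 2092 reads), 1.53-fold above RANKL alone, by 0.60 ± 0.192, and 1.67-fold above vesicles alone, by 0.71 ± 0.192. Both libraries were above in each case, as in 20.8% and 23.1% of genes. The difference from RANKL was 0.35 without replicate 1 of EV+RANKL, and also without replicate 1 of RANKL, and the difference from vesicles was 0.45 without replicate 1 of EV+RANKL.

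Over time, Ckb in the combination went from a mean of 34.7 RPKM at 48 h to 89.9 RPKM at 72 h, 2.59-fold, with both late libraries above both early ones as in 35.9% of genes. That difference of 1.34 ± 0.192 on the log2 scale was its largest of the 12 pairwise comparisons. In PBS both late libraries were below both early ones, by -0.15 ± 0.192, as in 22.1% of genes, and this was -0.06 without replicate 1 and -0.24 without replicate 2 of PBS at 48 h. With vesicles alone (0.02 ± 0.192) and with RANKL alone (0.36 ± 0.192) the libraries of both times overlapped. Without 1 library the former ran from -0.11 to 0.14 and the latter from 0.11 to 0.61.

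Sorted by mean, Ckb in EV+RANKL at 48 h (34.7 RPKM) stood apart below all other groups. RANKL at 48 h (45.1), vesicles at 48 h (53.2), vesicles at 72 h (53.7), RANKL at 72 h (58.7) and PBS at 72 h (65.4) formed a run in which each overlapped with the one before. PBS at 48 h (72.7) lay above PBS at 72 h without overlap, and overlapped with EV+RANKL at 72 h (89.9). For Ckb too the share of all tested genes with a group apart was not counted, and nothing is read from the order.

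**Figure D2:**
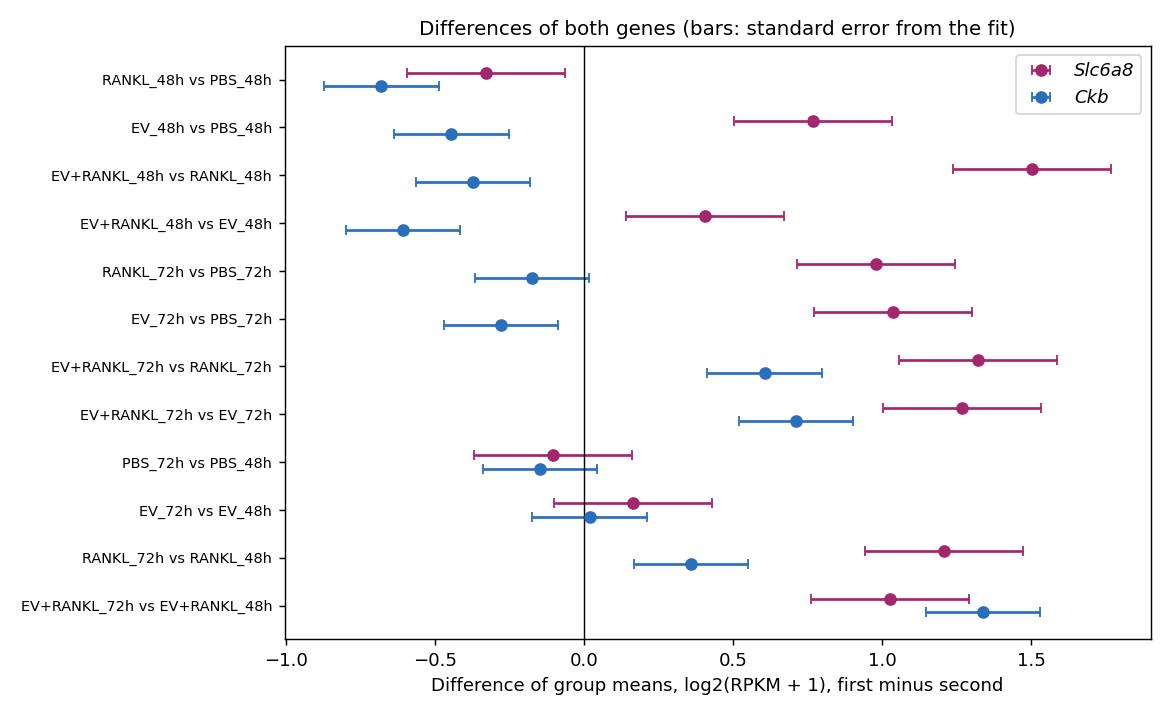
Difference of group means on the log2(RPKM + 1) scale for the 12 pairwise comparisons, first group minus second, with Slc6a8 and Ckb as points and the standard error from the fit as bars. For vesicles added to RANKL, Slc6a8 lies at 1.5 at 48 h and 1.32 at 72 h, while Ckb lies at -0.37 and 0.60.

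Whether vesicles went with a larger difference in the presence of RANKL than in its absence is the interaction of the design. For Slc6a8 it was 0.74 ± 0.374 on the log2 scale at 48 h and 0.29 ± 0.374 at 72 h, and the latter ranged from -0.03 without replicate 2 of EV at 72 h to 0.61 without replicate 1. For Ckb it was 0.07 ± 0.272 at 48 h, with either sign when 1 library is left out, and 0.88 ± 0.272 at 72 h. Over all genes limma called 1 of 10363 at each time at an adjusted p under 0.05, which is 0.00965%, and 318 genes at 48 h and 958 at 72 h had an unadjusted p under 0.05.

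Between libraries of the same group, Slc6a8 was higher in the library with more Ctsk, the collagen-degrading protease of osteoclasts, in 8 of 8 groups. Of the other 10362 tested genes, 1.57% had the same library higher as Slc6a8 in all 8 groups. For Acp5, the acid phosphatase that marks osteoclasts, it was 7 of 8 groups, a count reached by 6.49% of genes, and for Nfatc1, the transcription factor at the head of the osteoclast programme, 3 of 8. In EV+RANKL at 72 h, replicate 1 had 413 RPKM of Ctsk and 28.6 of Slc6a8 against 249 and 19.3 in replicate 2. In RANKL at 72 h replicate 2 was the one with more of both, 196 against 66.4 RPKM of Ctsk and 10.3 against 7.51 of Slc6a8. Ckb had the same library higher as Ctsk in 5 of 8 groups, a count reached by 33.8% of genes. Replicate 1 was the higher library in 7 of 8 groups for both Slc6a8 and Ctsk, and 5.5% of tested genes had replicate 1 higher in at least as many groups. Libraries share their depth and makeup, and may share what the replicate number stands for, so this is a description and its source was not tested.

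Across groups the osteoclast genes and Slc6a8 did not run in parallel. Vesicles alone for 48 h had 8.09 RPKM of Slc6a8 and 18.3 of Acp5 in the mean, while RANKL alone for 48 h had 3.28 of Slc6a8 and 86.7 of Acp5. Nfatc1 stood at 97.6 RPKM in RANKL at 48 h, where Slc6a8 had its lowest mean, and at 25.4 RPKM in vesicles at 72 h, where Slc6a8 stood at 9.43. Over the 16 libraries the Pearson r with Slc6a8 was 0.749 for Ctsk, 0.683 for Acp5 and 0.519 for Nfatc1, at ranks 307, 601 and 1269 of 6976 genes at 5 RPKM or more in their highest group. Ckb and Slc6a8 had an r of 0.267.

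The genes with the pattern most like that of Slc6a8 were Hsd3b7, an enzyme of bile acid synthesis (r = 0.947), Csf2rb2, a receptor subunit for interleukin 3 (0.943), Cdip1 (0.943), Agap1, a regulator of Arf GTPases (0.934), and Pdgfa, a platelet-derived growth factor (0.933). Hsd3b7 went from a group mean of 1.81 RPKM in PBS at 72 h to 10.3 RPKM in EV+RANKL at 72 h, and Csf2rb2 from 1.56 to 11.7 RPKM between the same groups. The most opposite were Sass6, of centriole assembly (-0.936), the kinase Zak (-0.926) and the GTPase Arf6 (-0.921). For Ckb the highest were Plekhb2 (0.849), Pxk (0.845), Cmtm3 (0.843), Fermt3, which activates integrins (0.842), and Arap3 (0.82). Cmtm3 went from 29.9 RPKM in EV+RANKL at 48 h to 48.0 RPKM in EV+RANKL at 72 h. The most opposite to Ckb were Aspm, of the mitotic spindle (-0.88), Cep295, of centrioles (-0.876), and Brd8 (-0.874). These correlations are over 16 libraries that fall into treatment groups and share depth, and are descriptions of likeness.

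Creatine synthesis stood beside uptake with its own levels. Gatm, which makes the precursor guanidinoacetate, ranged from 24.6 to 46.9 RPKM, and Gamt, which methylates it to creatine, from 2.37 to 6.44 RPKM. Gatm passed the test in 1 comparison: it fell by 0.56 ± 0.123 on the log2 scale in EV+RANKL against vesicles at 72 h (limma, adjusted p = 0.0058), with 24.6 and 31.5 RPKM against 36.7 and 46.9 RPKM, and the call was lost without replicate 1 of EV+RANKL (adjusted p = 0.0789). Gamt rose between 48 h and 72 h in the combination, from 2.56 and 2.37 RPKM to 4.62 and 5.31 RPKM, by 0.78 ± 0.136 (limma, adjusted p = 0.00175), and this call held when any 1 of the 4 libraries was left out. Over time Gamt also rose with vesicles (0.50 ± 0.136, limma adjusted p = 0.0159) and with RANKL (0.52 ± 0.136, adjusted p = 0.0455). Without 1 library these differences ran from 0.436 to 0.571 and from 0.257 to 0.784. Of all tested genes, 38.8% were called over time in the combination, 32.3% with vesicles and 6.03% with RANKL. At 72 h Gamt was also above PBS with RANKL (0.60 ± 0.136, limma adjusted p = 0.0088) and with vesicles (0.46 ± 0.136, adjusted p = 0.0366). The RANKL call was lost without replicate 2 of RANKL or replicate 1 of PBS, at an adjusted p of up to 0.0734, and the vesicle call without any 1 of its 4 libraries, at up to 0.163.

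Slc16a12, a monocarboxylate transporter family member known to carry creatine out of cells, rose with RANKL at 72 h. PBS had 4.13 and 3.79 RPKM, RANKL 9.21 and 10.6 RPKM, and the difference was 1.14 ± 0.088 on the log2 scale (limma, adjusted p = 9.57e-06). EV+RANKL at 72 h had 9.08 and 9.47 RPKM, above vesicles alone by 0.73 ± 0.088 (limma, adjusted p = 0.000126) and at -0.09 ± 0.088 from RANKL alone. Both calls held without any 1 library. The exporter stood at similar means in RANKL (9.92 RPKM) and EV+RANKL (9.27 RPKM) at 72 h, where the importer Slc6a8 stood at 8.89 and 23.9 RPKM. Without RANKL, Slc16a12 fell over time in PBS, by 0.62 ± 0.088 (limma, adjusted p = 0.01), a call lost without replicate 2 of PBS at 48 h or replicate 1 at 72 h.

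Of the summed RPKM of Ckb, Ckm and Ckmt1, Ckb made up nearly all, between 98.45% and 100% per library. Ckm had at most 1 read in a library. Ckmt1 was below the filter, and its reads were 0 and 0 in PBS at 48 h, 1 and 0 with vesicles, 6 and 3 with RANKL, and 15 and 5 with EV+RANKL. At 72 h they were 0 and 0, 0 and 2, 11 and 33, and 82 and 42, in the same order. Ckmt1 thus had its highest mean in EV+RANKL at 72 h, as did Ckb and Slc6a8. The share of all genes with their highest mean in that group was not counted. At 72 h Ckmt1 was at least 7.09-fold higher with RANKL than in PBS, taking 3 reads per library as the limit for PBS. That bound was 3.62-fold without replicate 2 and 10.5-fold without replicate 1 of RANKL. When genes without a minimum level entered the fit, the difference between EV+RANKL and vesicles at 72 h was 1.13 on the log2 scale (limma, adjusted p = 0.00267). In that fit RANKL against PBS at 72 h (0.52, limma adjusted p = 0.0979) and EV+RANKL against RANKL at 72 h (0.65, adjusted p = 0.117) did not pass. The annotated Ckmt1 overlaps its neighbour Strc by a few bases, and Ckb has the annotated pseudogenes Ckb-ps1 and Ckb-ps2, so a few reads may be assigned to the wrong copy. Ckmt2 is not analysed here.

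**Figure D3:**
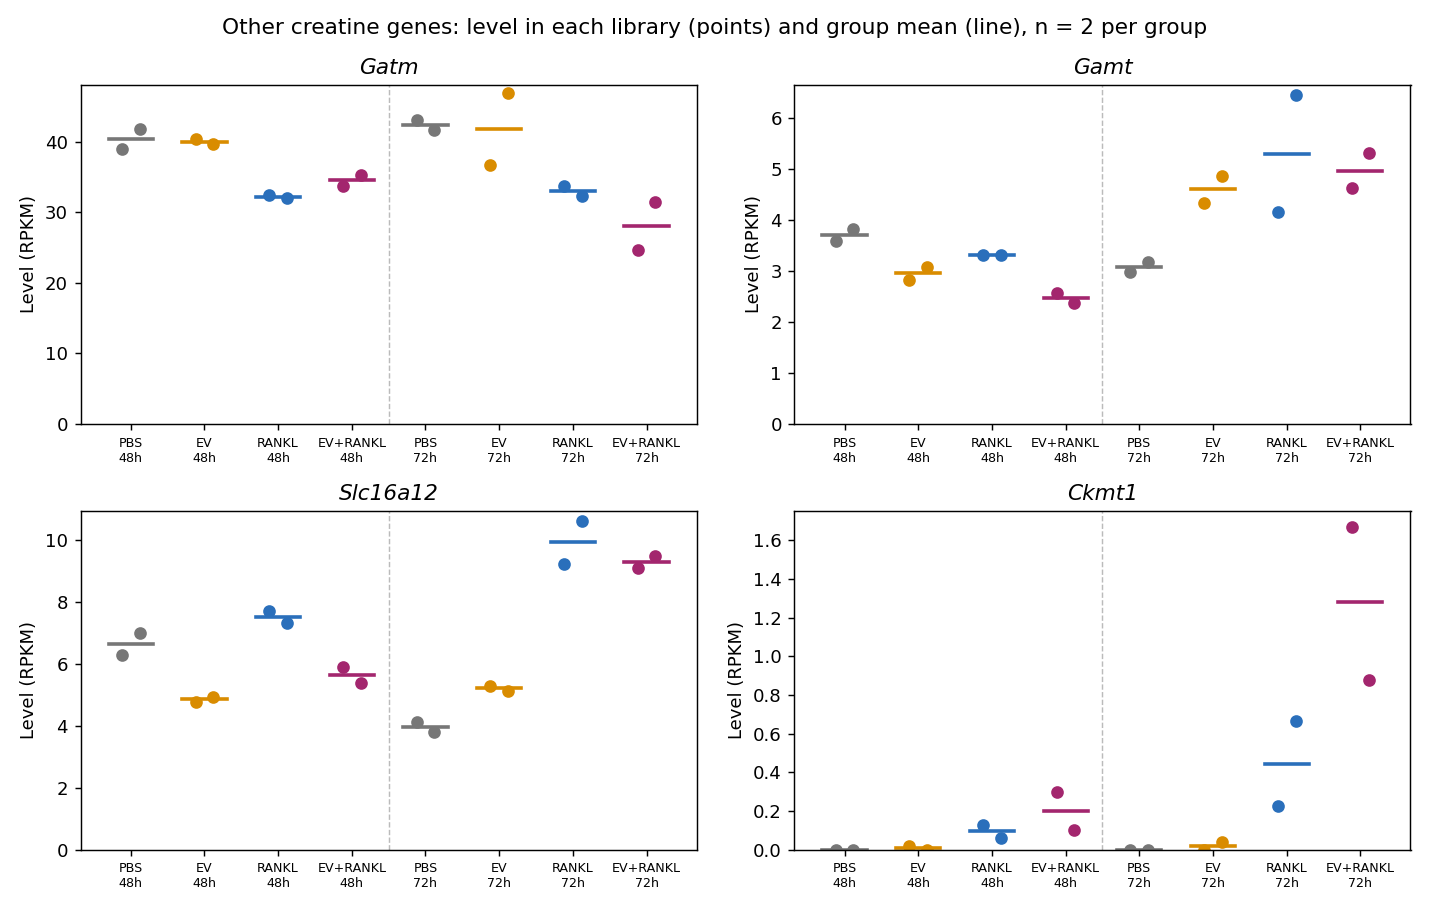
Levels in RPKM, on linear axes from 0 that differ between panels, of Gatm, Gamt, Slc16a12 and Ckmt1 by group, with a point per library and a line for the mean of 2. Slc16a12 stands at 9.21 and 10.6 RPKM with RANKL at 72 h against 4.13 and 3.79 RPKM in PBS, and Ckmt1 is at 0 in all 4 PBS libraries.

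The other SLC6 transporters gave a family background for Slc6a8. Of 19 listed, 14 were in the table and 4 were tested: Slc6a6, the taurine transporter, Slc6a9, a glycine transporter, Slc6a12, a betaine and GABA transporter, and Slc6a13, a GABA transporter. At 72 h 3 of the 4 rose with vesicles alone, beside 18.3% of all tested genes called, with Slc6a12 from a mean of 34.3 to 61.3 RPKM (0.83 ± 0.169, limma adjusted p = 0.012), Slc6a9 from 3 to 5.85 RPKM and Slc6a13 from 7.69 to 11.8 RPKM. These calls were all lost without replicate 2 of PBS or replicate 1 of EV at 72 h. The clearest change was over time in the combination, where Slc6a12 rose from 32.4 ± 4.48 to 92.6 ± 7.13 RPKM (SD, n = 2), by 1.49 ± 0.169 (limma, adjusted p = 0.000914), and held without any 1 library. Slc6a6 passed in no pairwise comparison, with means of 111 to 143 RPKM.

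Beyond the creatine genes and transporters, lists of adenylate kinases, AMP-activated kinase, mitochondrial exchange, arginine and methyl donor supply, osmolyte handling and the ERR and PGC-1 regulators were read. Together the 10 lists hold 77 genes without Slc6a8 and Ckb, of which 68 were in the table and 46 were tested. As the lists were chosen with earlier results of these data known, their counts and medians are a description. At 48 h RANKL raised 5 and lowered 1 of the 46 against PBS, beside 14.8% of all tested genes called in either direction, and the count was 3 without replicate 2 of PBS or replicate 2 of RANKL, where 6.96% and 6.92% of all genes were called. EV+RANKL against vesicles at 48 h raised 3 and lowered 1, beside 9.53%, and the count was 2 without replicate 2 of EV or replicate 1 of EV+RANKL, beside 3.5% and 4.28%. Vesicles alone at 48 h called 0 of 46 with limma, beside 1.29% of all genes, and vesicles added to RANKL at 48 h called 0 of 46, beside 0.434%. An unadjusted p under 0.05 was found for 4 and 6 of the 46, beside 1159 and 834 of all 10363 tested genes. At 72 h RANKL raised 8 and lowered 5 of 46, beside 18.9% of all genes, and the count was 8 without replicate 2 of RANKL, beside 7.12%. Vesicles alone raised 9 and lowered 4, beside 18.3%, and the count was 0 without replicate 2 of PBS or replicate 1 of EV, where all genes called also dropped, to 0.347% and 0.531%. Vesicles added to RANKL called 1 gene, Ak1, beside 1.82%, and 10 genes without replicate 2 of RANKL, where 17.5% of all genes were called. Without any other of its 4 libraries the count was 0, beside 0.0482% to 0.482% of all genes. EV+RANKL against vesicles raised 9 and lowered 8, beside 22.0%, and the count was 9 without replicate 1 and 10 without replicate 2 of EV+RANKL, beside 12.0% and 14.7%.

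Adenylate kinases shuttle phosphate between adenine nucleotides and so serve the same need as creatine kinase. Ak1, the cytosolic form, rose in EV+RANKL at 72 h against RANKL, from 3.84 ± 1.31 to 6.93 ± 0.186 RPKM (SD, n = 2), by 0.74 ± 0.164 (limma, adjusted p = 0.0412), and against vesicles by 1.20 ± 0.164 (limma, adjusted p = 0.000285). The first call was lost without replicate 1 of RANKL, without either EV+RANKL library (adjusted p up to 0.413), with 0.1 RPKM added in place of 1 (0.0613), with no filter on low values (0.102) or with a filter of 5 RPKM (0.0557), and the second held without any 1 library. Ak4, a mitochondrial form, was lower with RANKL than in PBS at 72 h, by 1.26 ± 0.242 (limma, adjusted p = 0.00372). It stood at 5.63 ± 0.42 RPKM against 15.2 ± 4.58 RPKM. At 48 h its means were 3.68 RPKM with RANKL and 5.55 RPKM in PBS. Over time Ak4 rose in PBS (1.29 ± 0.242, limma adjusted p = 0.0331), by 0.995 to 1.58 without 1 library. With RANKL its difference over time was 0.55 ± 0.242. Of the 9 tested genes of AMP-activated kinase, the sensor of low ATP, and its upstream kinases, Prkag2 alone passed for RANKL against PBS at 72 h (0.36 ± 0.101, limma adjusted p = 0.0265), and the call was lost without any 1 of the 4 libraries.

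Osmolyte handling is listed because creatine and the betaine and taurine of the SLC6 family also act as osmolytes. Slc5a3, the inositol transporter, rose with RANKL against PBS at 48 h, from 3.59 to 10.8 RPKM in the mean (1.37 ± 0.223, limma adjusted p = 0.00131), and at 72 h, from 6.25 to 23.2 RPKM (1.71 ± 0.223, adjusted p = 0.000367). Nfat5, the transcription factor of the osmotic stress response, rose in the same comparisons, by 0.65 ± 0.115 and 0.74 ± 0.115 (limma, adjusted p = 0.00212 and 0.00117). At 72 h, 3 of the 4 listed genes rose with RANKL, beside 18.9% of all tested genes called in either direction, with a list median of 0.67 beside 0.00 over all tested genes, and Akr1b3, the aldose reductase that makes sorbitol, was the third. Slc5a3 and Nfat5 kept both calls without any 1 library, while Akr1b3 lost its call without replicate 2 of RANKL or replicate 1 of PBS.

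Of the 10 tested genes of arginine and methyl donor supply, 1 fell with RANKL at 48 h, beside 14.8% of all genes called, and 4 fell and 0 rose at 72 h, beside 18.9%. Slc7a7, a subunit of the arginine exchanger, fell with RANKL at 48 h from 3.23 ± 0.112 to 0.394 ± 0.0204 RPKM (SD, n = 2), by 1.60 ± 0.171 (limma, adjusted p = 8.12e-05), and at 72 h by 0.89 ± 0.171 (adjusted p = 0.00376). Ass1, which makes argininosuccinate on the way to arginine, fell at 72 h from 2.51 to 0.689 RPKM, by 1.06 ± 0.171 (limma, adjusted p = 0.00139), and Slc7a1, the main arginine importer, by 0.53 ± 0.092 (adjusted p = 0.00227). These 3 genes kept these calls without any 1 library. Of the ERR and PGC-1 regulators of mitochondrial genes, Ppargc1b rose in EV+RANKL against vesicles at 72 h, from 3.98 to 8.07 RPKM (0.86 ± 0.108, limma adjusted p = 0.000152).

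Between 48 h and 72 h the 46 listed genes were called 2 times in PBS, beside 0.647% of all genes, 16 times with vesicles, beside 32.3%, 4 times with RANKL, beside 6.03%, and 20 times with EV+RANKL, beside 38.8%. Each of these counts moved by over 1.5 times when 1 library was left out. In PBS it was 0 to 4, while 0.0289% to 2.34% of all genes were called, and with RANKL 0 to 13, while 0 to 1739 of all genes were called, depending on any of their 4 libraries. With vesicles it was 7 or 6 without replicate 1 or 2 of 48 h, beside 13.1% and 10.9%, and 4 without replicate 1 of 72 h, beside 6.26%. With EV+RANKL it was 7 without the library of 48 h whose column name lacks the letter for RANKL, 9 without replicate 1 of 72 h and 13 without replicate 2, beside 13.7%, 13.8% and 31.2% of all genes.

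**Figure D4:**
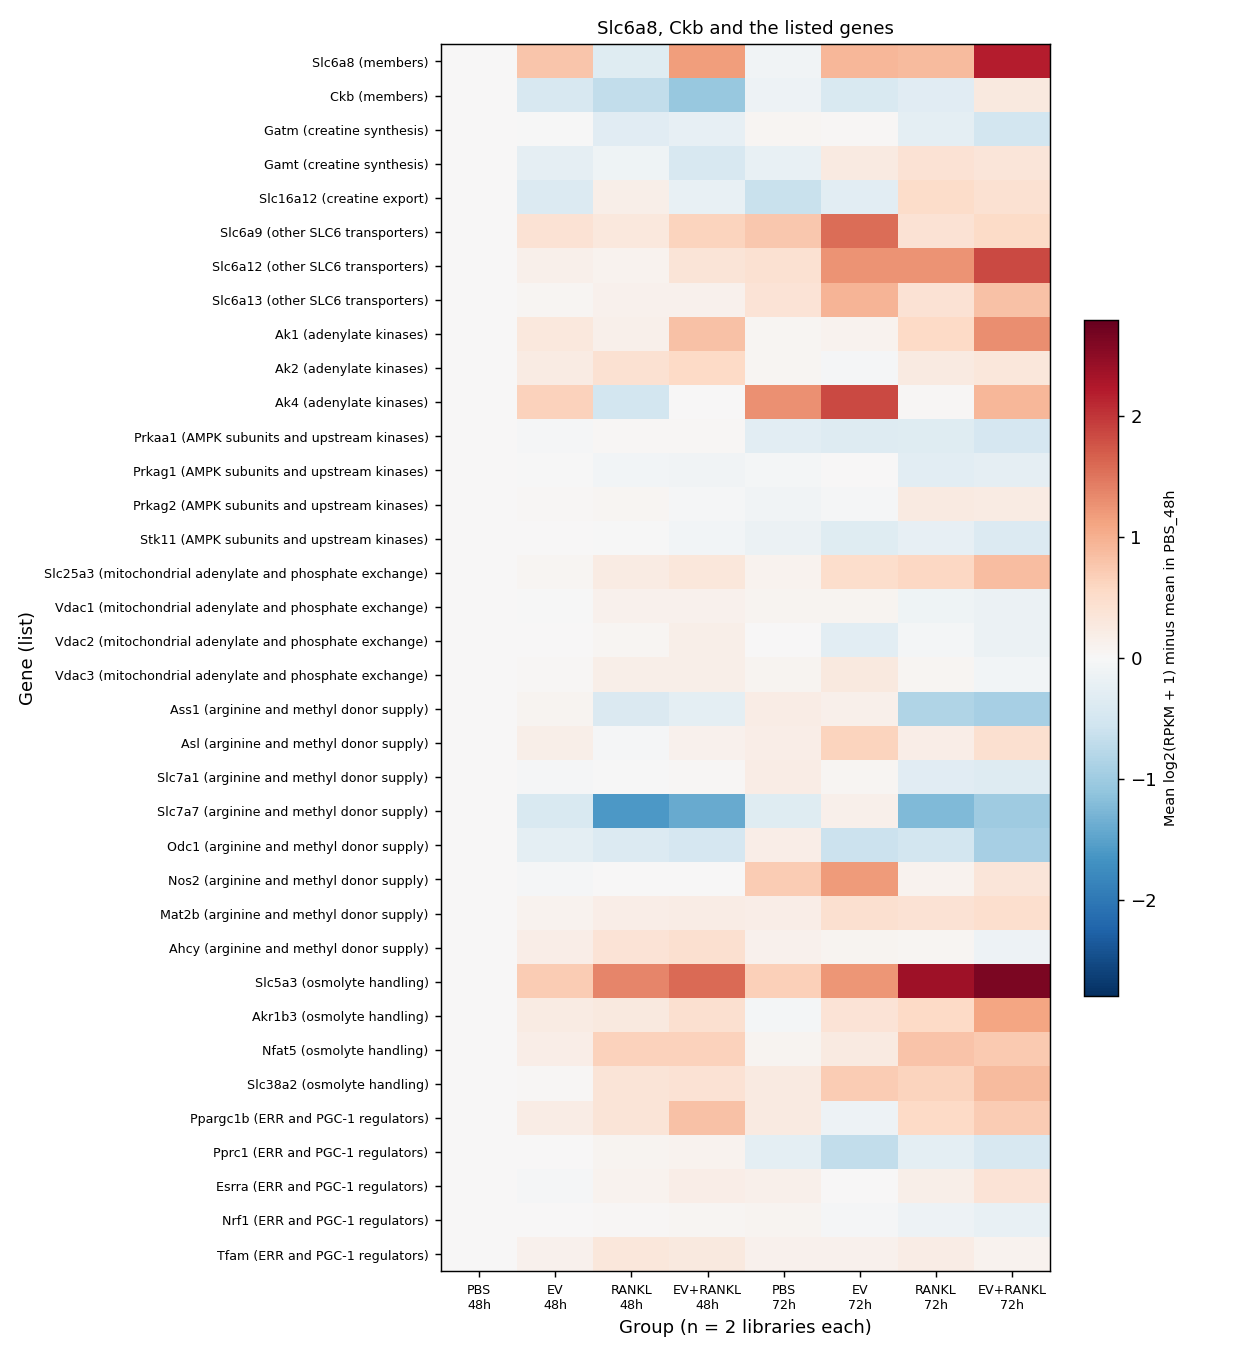
Colours give the mean log2(RPKM + 1) of each group of 2 libraries minus the mean in PBS at 48 h, for Slc6a8, Ckb and the listed genes called in at least 1 comparison, with the list in brackets. Red is higher and blue lower, and Slc5a3, Slc6a12 and Slc6a8 are among the darkest red in EV+RANKL at 72 h, and Slc7a7 is the darkest blue with RANKL at 48 h.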

How the data were processed

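Per the labels' protocols, libraries for 16 samples were prepared from total RNA with a TruSeq mRNA kit. Per the submitters' processing notes, FastQC, HISAT2 and Partek were used, and GRCh38 and hg38, which are human, are the builds named, although the table holds mouse symbols. For mouse build, annotation and read counter the name is not given in the sources used here. The deposited table is read here as log2 of RPKM plus 1, a unit found from its values and stated by no source. With base 2, 186 to 256 of the single-exon genes considered in a library pointed to the same whole number of reads, with base e 15 to 37 and with base 10 4 to 11. Gene lengths of 5210 for Slc6a8 and 1478 for Ckb gave whole reads in all 16 libraries within a relative distance of 1e-05. One library of EV+RANKL at 48 h has a column name without the letter for RANKL. Only its group was inferred, from the plus sign in the name, and it is called replicate 2 because replicate 1 has its own column.

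limma 3.58.1 in R 4.3.3 fitted 8 group means on all 16 libraries with a variance trend, for the 10363 genes that reached 1 RPKM in 2 or more libraries, with Benjamini-Hochberg adjustment over all of them and a threshold of 0.05 in each of 14 comparisons. The 2 table rows that share 1 date-like name were left out. The fit was tested on simulated data. Both genes and the lists were chosen with earlier results of these data known. Named are Slc6a8 and Ckb, all listed genes of creatine synthesis, export and kinases, at most 4 called genes per other list and comparison with the smallest adjusted p, and the 5 genes most like and 3 most unlike each of Slc6a8 and Ckb. Library numbers were checked for pairing, and alternatives changed the added 1, the filter, the scaling, the trend, the block and the libraries used. Promoter sequence is from RefSeq, GRCm38.p6, where 1 of the 2 genes was matched.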

Additional observations from a re-analysis of the deposited data

Results flagged for a closer look

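Some genes had all libraries moving one way in one setting and the opposite way in another. None of these differences was tested, and no cause was tested. How many of all tested genes did so was not counted, so nothing is read from the number of cases. For Ckb, vesicles added to RANKL went with -0.37 on the log2 scale at 48 h and 0.60 at 72 h, which differ by 0.98. RANKL added to vesicles went with -0.61 at 48 h and 0.71 at 72 h for Ckb, which differ by 1.32. At 72 h vesicles went with -0.28 without RANKL and 0.60 with it for Ckb, which differ by 0.885.

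The genes of creatine synthesis and export did the same in the cases below. Gatm went by 0.10 at 48 h and -0.24 at 72 h when vesicles were added to RANKL, a difference of -0.33. Neither value passed (limma, adjusted p = 0.999 and 0.289), and that of 72 h ran from -0.41 to -0.07 when 1 library was left out. Gamt went by -0.12 at 48 h and 0.60 at 72 h with RANKL against PBS, a difference of 0.73. With vesicles against PBS, Gamt went by -0.25 and 0.46, a difference of 0.71. Slc16a12, also with vesicles against PBS, went by -0.38 at 48 h and 0.33 at 72 h, a difference of 0.71. From 48 h to 72 h its mean went from 6.64 to 3.96 RPKM in PBS and from 4.86 to 5.21 RPKM with vesicles. The 48 h values of Gamt (limma, adjusted p = 0.586 and 0.545) and of Slc16a12 (0.0577) did not pass.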

How the results depend on the processing

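Under the 7 alternatives that keep all or nearly all libraries, every one of 98 values of Slc6a8 and 98 of Ckb moved by less than 1 SD of replicates (0.321 and 0.225 on the log2 scale), and 1 changed sign, Ckb with EV over time (0.02, and -0.03 after scaling to nuclear genes). Changes of the filter and of the variance trend cannot move a difference of group means. The replicate block moves only comparisons that use EV+RANKL at 48 h, so many of these values were fixed in advance. Leaving out 1 library gave the following ranges. For Slc6a8 they were 0.71 to 1.36 for EV against PBS at 72 h, 0.94 to 1.59 for EV+RANKL against EV at 72 h, -0.16 to 0.48 for EV over time and -0.034 to 0.61 for the interaction at 72 h. For Ckb they were -0.43 to 0.076 for RANKL against PBS at 72 h, 0.35 to 0.86 for EV+RANKL against RANKL, 0.45 to 0.97 for EV+RANKL against EV, 0.11 to 0.61 for RANKL over time, 1.08 to 1.60 for EV+RANKL over time and 0.63 to 1.14 for the interaction at 72 h.

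The count of listed genes called ran from 3 to 4 for RANKL against PBS at 48 h, 2 to 4 for EV+RANKL against EV at 48 h, 8 to 16 for RANKL and 0 to 13 for EV against PBS at 72 h, 0 to 10 for EV+RANKL against RANKL and 9 to 15 against EV at 72 h. Over time it ran from 0 to 4 in PBS, 4 to 15 with EV, 0 to 13 with RANKL and 7 to 18 with EV+RANKL, and it was 0 to 1 for the interaction at 72 h. With no filter the count was 3 for RANKL at 48 h (6 with it), 4 for EV at 72 h (13), and over time 1 in PBS (2) and 1 with RANKL (4). For EV+RANKL against RANKL at 72 h (1) it was 0 with 0.1 RPKM added or a filter of 5 RPKM, and 2 after scaling to nuclear genes or quantile normalization, which also gave 1 for EV at 48 h (0).

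No label says what libraries of the same number share. Over 21 pairs of groups their deviations correlated at -0.0389 to 0.529, a median of 0.118, with 11 above 0.1 and 0 below -0.1. What the number stands for was not tested, and the main fit has no block for it. Over all genes, such a block gave 193 in place of 134 for EV against PBS at 48 h. It gave 1711 in place of 1530 for RANKL against PBS at 48 h, and 174 in place of 189 for EV+RANKL against RANKL at 72 h. With the replicate block the count over time in EV+RANKL was 10 in place of 20, in a fit without the unnumbered library, and over all genes 2366 in place of 4026. It was 10 in place of 45 genes for EV+RANKL against RANKL at 48 h and 127 in place of 67 over time in PBS. Over all genes, no filter gave 70 for EV at 48 h (134), 1070 for EV at 72 h (1895) 162 for RANKL over time (625) and 37 in PBS over time (67). Quantile normalization gave 29 for EV+RANKL against RANKL at 48 h (45), and 0.1 RPKM added gave 124 at 72 h (189). Over these settings the interactions called 0 to 9 genes at 48 h and 1 to 39 at 72 h (1 each), and 1 to 2 and 0 to 64 without 1 library. With 2 libraries a group, levels rest on few samples, and genes with few reads, such as Ckmt1, are limited by depth.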
